A study of Mus musculus with 6 samples.

Results

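Citric acid cycle enzymes are described here through 9 genes, Cs, Idh2, Idh3a, Idh3b, Ogdh, Sucla2, Suclg1, Fh1 and Mdh2. They were taken by symbol from the 13283 genes of the deposited table, and all 9 were found. RNA-seq was made from 6 cultures of the BAT line, immortalized brown preadipocytes of the mouse that were differentiated into fat cells. All cells stably expressed Cas9, and all received 10 µM forskolin, an activator of adenylyl cyclase, for 6 h on day 6 of differentiation. The 3 Scr cultures, labelled as controls with genotype WT, carried a scrambled sgRNA. The 3 MICT1 KO cultures were knockout pools, not clones, made with lentiviral sgRNA against the microprotein MICT1 and sorted for GFP. The labels do not tell which guide each KO library carried, and MICT1 itself was not analysed here.

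The citric acid cycle runs in the mitochondrial matrix. Citrate synthase joins acetyl-CoA to oxaloacetate, and the following enzymes oxidise the product back to oxaloacetate while they pass electrons to NAD and to the respiratory chain. In brown fat this supply of reduced carriers fuels the proton gradient that uncoupling protein turns into heat. Citrate can also leave the mitochondrion and serve as a carbon source for fatty acid synthesis, so the cycle stands between oxidation and lipid storage.

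The values are a normalized signal, read as an estimated number of reads scaled by a factor for its library. Multiplied back by that factor, the genes of the table summed to an estimated 15445815 to 17925630 reads per library. The 54 values of the 9 genes then all came within 0.1 of a whole number of reads, from 689 to 7127. The labelled cell type was checked on its markers. Adipocyte markers had high values in Scr, led by Lpl and Fabp4, whereas Ucp1, the uncoupling protein of brown fat, read only 20.8 to 30.5 in Scr. Of the other brown fat markers Cox7a1 read 91.8 to 123 in Scr and did not pass the test (0.35 on the log2 scale, adjusted p = 0.141 by limma-trend), Ppargc1a was too low to be tested, and Cidea, Elovl3, Dio2, Prdm16 and Cox8b were not analysed here.

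All 9 enzymes were lower in MICT1 KO cells, with an adjusted p under 0.05 over the 12507 genes tested (limma-trend on log2(value + 1), Benjamini-Hochberg adjustment). None was higher. In the same fit 28.3% of all genes tested were lower and 56.9% changed in either direction. The median log2 fold change of the 9 was -0.63, against -0.0053 for all genes tested. The falls of the group means ran from 10.3% (Mdh2) to 52.8% (Idh3a). Those of the catalytic subunit of NAD-linked isocitrate dehydrogenase (Idh3a), of NADP-linked isocitrate dehydrogenase (Idh2) and of the shared subunit of succinyl-CoA ligase (Suclg1) were the largest, and those of Ogdh and Mdh2 the smallest. Only Idh3a was at least 2-fold lower, which 5.76% of all genes tested were. At the fold of the study's methods, 1.8-fold lower with an unadjusted p under 0.05, the count was 2 of the 9 (Idh3a and Idh2), against 7.39% of all genes tested.

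**Figure D1:**
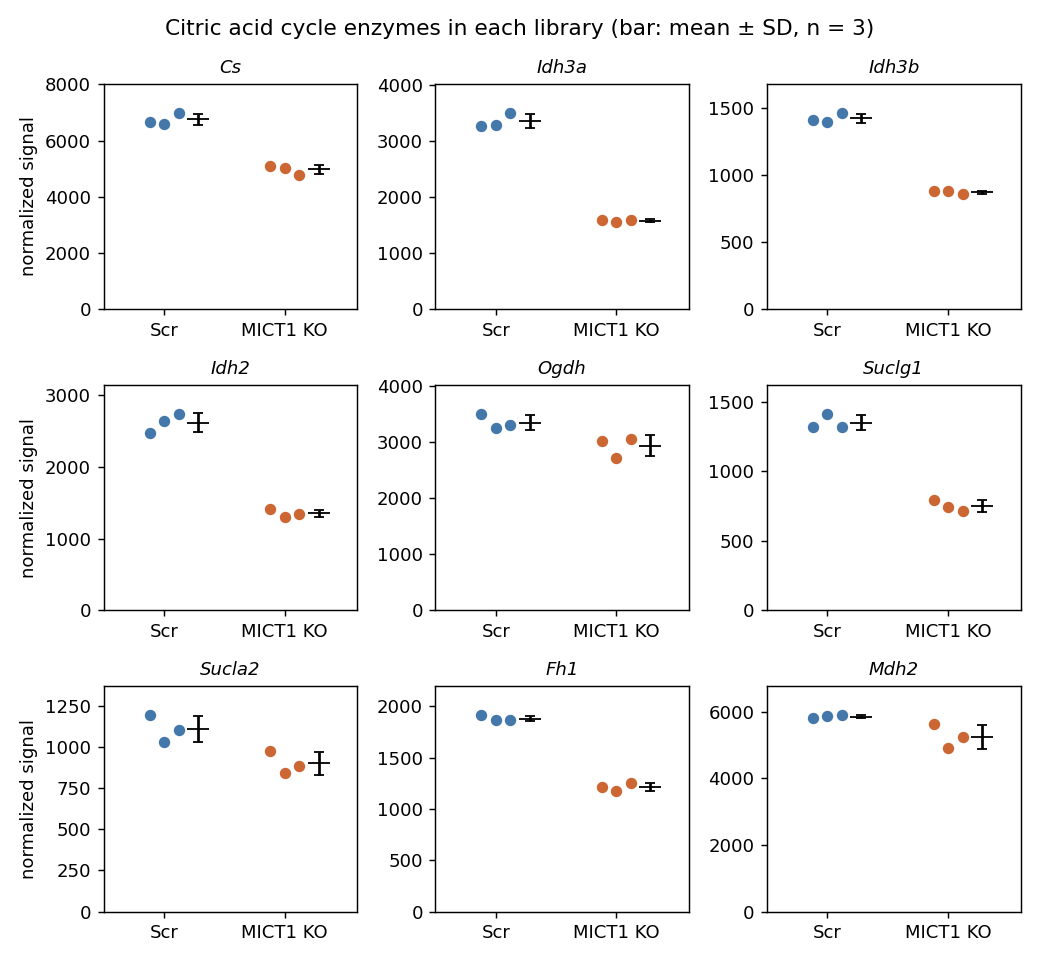
Normalized signal (vertical axes, from 0) of the 9 enzymes in the 3 Scr and 3 MICT1 KO libraries, one point per library, with the mean ± SD (n = 3) beside them. In each panel the 3 MICT1 KO points lie below the 3 Scr points, widely apart for Idh3a and narrowly for Sucla2, Ogdh and Mdh2.

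The groups did not overlap for any of the 9 genes, with every MICT1 KO value below every Scr value. Among all genes tested 31.2% were lower and 30.9% higher without overlap, 62% in all. Summed over the 9 genes, the signal per library reached 27551, 27338 and 28139 in Scr, against 20596, 19168 and 19729 after knockout. In bulk RNA, fewer cells of a type and less RNA per cell cannot be told apart, so each value below is a level in the whole culture.

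Citrate synthase opens the cycle, and its enzyme activity is widely used as a measure of mitochondrial content. The values here are of its RNA and measure neither activity nor content. Cs lies on chromosome 10 from 128337734 to 128362479 (GRCm38, + strand). It read 6671, 6607 and 6981 in the Scr cultures, against 5101, 5042 and 4793 after knockout. The lowest Scr value stood 1505 above the highest MICT1 KO value. From 6753 ± 199.9 (SD, n = 3) the mean went to 4979 ± 164 (SD, n = 3), which limma-trend gave as a log2 fold change of -0.44 ± 0.053 (SE) at an adjusted p of 4.15e-07, and the mean was 26.3% lower.

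Isocitrate dehydrogenase removes a carbon as carbon dioxide and forms alpha-ketoglutarate. The NAD-linked enzyme is built from a catalytic alpha subunit (Idh3a) and from beta and gamma subunits (Idh3b and Idh3g), and a separate NADP-linked enzyme in the matrix is encoded by Idh2. Idh3a (chromosome 9, from 54586334 to 54604661, + strand) read 3279, 3295 and 3507 in the Scr cultures, against 1590.2, 1565 and 1605 after knockout. Its group means were 3360.3 ± 127 and 1586 ± 20.2 (SD, n = 3 each), which limma-trend gave as a log2 fold change of -1.08 ± 0.058 (SE) at an adjusted p of 1.37e-12. The coefficient of variation of Idh3a after knockout was 1.28%, and 5.36% of all genes tested had a lower log2 fold change. No other member fell as far.

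Idh3b (chromosome 2, from 130279309 to 130284547, - strand) read 1410.45, 1396 and 1459 in the Scr cultures, against 877, 878 and 855 after knockout. By limma-trend the change was -0.71 ± 0.068 (log2 fold change and SE) at an adjusted p of 1.49e-08, smaller than that of its catalytic partner. Idh2 (chromosome 7, from 80094846 to 80115392, - strand) read 2468, 2634.5 and 2727 in the Scr cultures, against 1407, 1303 and 1336 after knockout. The means of Idh2 were 2609.8 ± 131 and 1349 ± 53.1 (SD, n = 3 each), which limma-trend gave as a log2 fold change of -0.95 ± 0.063 (SE) at an adjusted p of 4.61e-11, and the mean was 48.3% lower.

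The alpha-ketoglutarate dehydrogenase complex makes succinyl-CoA, and Ogdh encodes the subunit that decarboxylates the substrate. Ogdh (chromosome 11, from 6291633 to 6356642, + strand) read 3495, 3244 and 3299 in the Scr cultures, against 3017, 2720.4 and 3063 after knockout. The groups stood apart by 181, less than the range of values within either group. The limma-trend estimate was -0.19 ± 0.060 (log2 fold change and SE) at an adjusted p of 0.0103, and the mean was 12.3% lower. The call was lost without Scr replicate 1 (-0.16, adjusted p = 0.0567) and without MICT1 KO replicate 2 (-0.14, adjusted p = 0.0675, both from limma-trend), and over all 15 fits the adjusted p ran from 0.00769 to 0.0675.

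Succinyl-CoA ligase pairs a shared alpha subunit, Suclg1, with either an ADP-forming beta subunit, Sucla2, or a GDP-forming one, Suclg2. Suclg1 (chromosome 6, from 73248382 to 73276911, + strand) read 1320.4, 1411 and 1316 in the Scr cultures, against 796, 747 and 714 after knockout. By limma-trend the change was -0.84 ± 0.073 (log2 fold change and SE) at an adjusted p of 3.68e-09, and the mean was 44.2% lower. Sucla2 (chromosome 14, from 73525319 to 73596142, + strand) read 1191, 1032 and 1101 in the Scr cultures, against 975, 842 and 883 after knockout. The gap between the groups of Sucla2 was 56.5, the narrowest of the 9 genes. The limma-trend estimate was -0.30 ± 0.079 (log2 fold change and SE) at an adjusted p of 0.00294, and its values also varied most between replicates, with coefficients of variation of 7.20% in Scr and 7.59% in MICT1 KO.

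Fumarase hydrates fumarate to malate, and malate dehydrogenase closes the cycle at oxaloacetate. Fh1 (chromosome 1, from 175600374 to 175625635, - strand) read 1909.9, 1861 and 1866 in the Scr cultures, against 1217, 1174 and 1255 after knockout. By limma-trend the change was -0.63 ± 0.063 (log2 fold change and SE) at an adjusted p of 2.96e-08, and the mean was 35.3% lower, in the middle of the 9 genes. Mdh2 (chromosome 5, from 135778480 to 135790398, + strand) read 5806, 5858 and 5884 in the Scr cultures, against 5614, 4897 and 5224 after knockout. The Scr values of Mdh2 were the tightest of all members, with a coefficient of variation of 0.676%, and its MICT1 KO values were among the most scattered, with 6.84%. The limma-trend estimate was -0.16 ± 0.056 (log2 fold change and SE) at an adjusted p of 0.0202, and the mean was 10.3% lower. This call was lost without Scr replicate 2 (-0.16, adjusted p = 0.0594), without MICT1 KO replicate 2 (-0.11, adjusted p = 0.117) and without MICT1 KO replicate 3 (-0.16, adjusted p = 0.0548, all from limma-trend), within a range of 0.00275 to 0.117 over 15 fits.

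Levels can be compared between genes only per length. As RPKM, computed from the signal, its sum per library and the exon length of GENCODE vM21, Mdh2 was the highest in Scr (100.3 ± 1.19 RPKM, SD, n = 3). Cs (71.4 ± 2.47 RPKM) and Idh2 (61.6 ± 2.56 RPKM) followed. Idh3a (40.5 ± 1.57 RPKM) and Ogdh (37.5 ± 2.07 RPKM) overlapped in their Scr libraries, as did Suclg1 (17.8 ± 0.506 RPKM) and Sucla2 (17.0 ± 1.49 RPKM) at the lower end. Between them stood Fh1 (33.9 ± 0.9996 RPKM) and Idh3b (25.4 ± 0.756 RPKM). The order of the means differed after knockout. In MICT1 KO libraries Ogdh (32.9 ± 2.05 RPKM) was at rank 3 in place of Idh2 (31.9 ± 1.08 RPKM), and these 2 overlapped. Idh3a (19.2 ± 0.270 RPKM) went from rank 4 to rank 6, below Fh1 (21.96 ± 0.764 RPKM) without overlap. Sucla2 (13.8 ± 0.969 RPKM) and Suclg1 (9.98 ± 0.486 RPKM) exchanged places and no longer overlapped. The exon length counts every annotated exon of a gene, so a gene with rarely used exons reads too low.

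**Figure D2:**
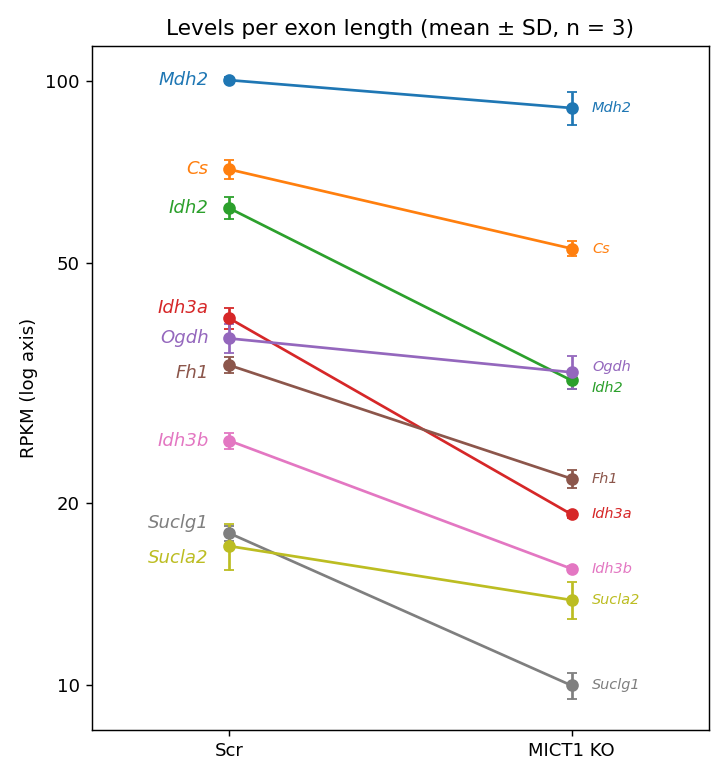
Level per exon length (RPKM, log axis, mean ± SD, n = 3) of the 9 enzymes in Scr (left) and MICT1 KO (right) libraries, with a line for each gene. The lines of Mdh2 and Ogdh are nearly level while those of Idh3a, Idh2 and Suclg1 descend and cross others, so that Idh3a passes from rank 4 to rank 6.

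Other subunits of the cycle were taken from a list of 13 genes, which also held the assembly factors of succinate dehydrogenase. Of the 12 genes tested 8 were lower, 0 were higher and 4 missed the threshold, and the list had a median of -0.31 on the log2 scale. For the same fit 28.3% of all genes tested were lower and 28.5% were higher, and 1 gene of the list, Ogdhl, was below the filter on low values. Idh3g, the gamma subunit, was lower (-0.72, adjusted p = 3.23e-07 from limma-trend), beside -0.71 for Idh3b. Dld, the dihydrolipoamide dehydrogenase that the alpha-ketoglutarate, pyruvate and branched-chain dehydrogenase complexes share, fell from 3740 ± 56.3 to 1925 ± 126 (SD, n = 3 each), a log2 fold change of -0.96 (adjusted p = 1.70e-11 from limma-trend). Dlst, the transferase core specific to the alpha-ketoglutarate complex, had a log2 fold change of -0.15 (adjusted p = 0.0225).

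The catalytic flavoprotein of succinate dehydrogenase, Sdha, had a log2 fold change of -0.54 (adjusted p = 1.11e-07 from limma-trend). Its iron-sulfur subunit Sdhb (-0.27, adjusted p = 0.0116) and its membrane anchors Sdhc (-0.68, adjusted p = 2.69e-07) and Sdhd (-0.33, adjusted p = 0.000148) were lower too. Suclg2 was lower as well (-0.35, adjusted p = 0.00271). The genes that did not pass were the assembly factors Sdhaf1 (-0.29, adjusted p = 0.0945), Sdhaf2 (0.12, adjusted p = 0.205), Sdhaf3 (-0.14, adjusted p = 0.799) and Sdhaf4 (0.0038, adjusted p = 0.987). The subunits of this list that were tested, assembly factors aside, were all lower.

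**Figure D3:**
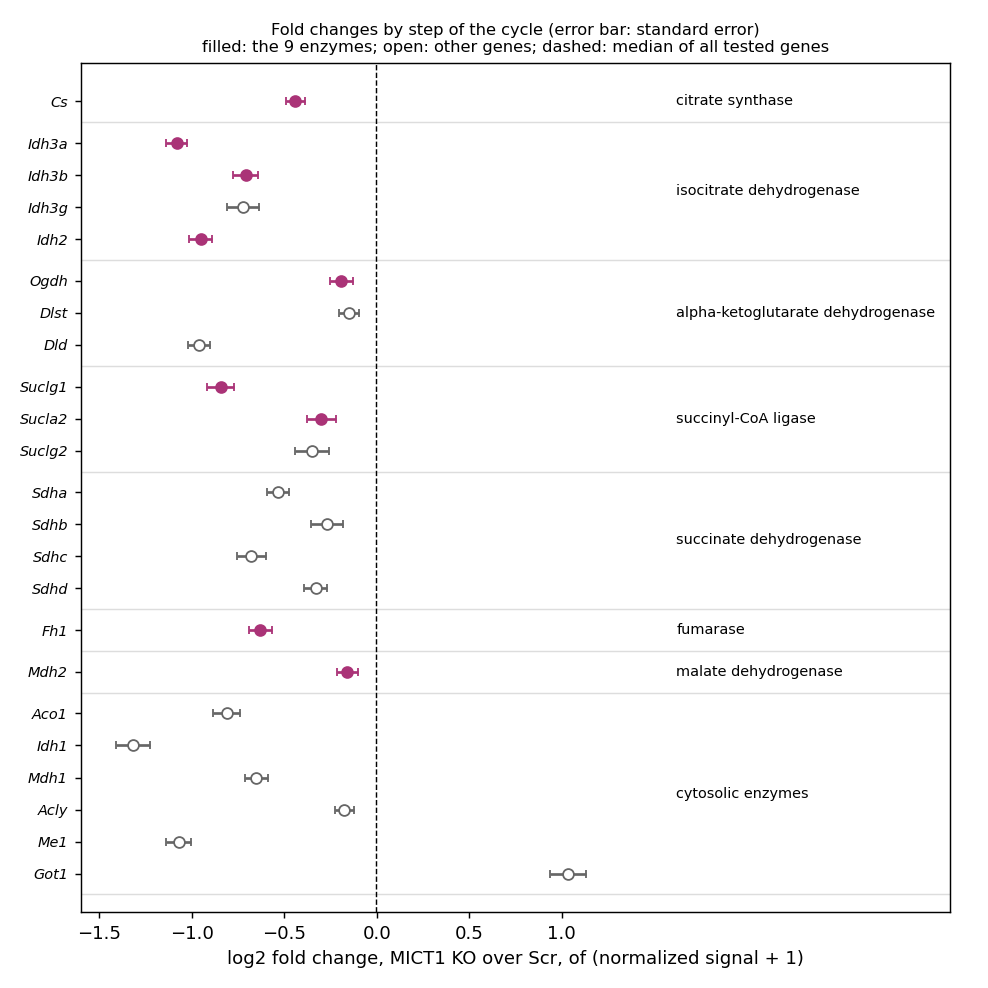
Log2 fold change of (normalized signal + 1), MICT1 KO over Scr, with its standard error, for genes of the cycle ordered by step and for cytosolic enzymes. Filled points are the 9 enzymes, open points other genes, and the dashed line is the median of all genes tested (-0.0053). The points of the cycle lie between -1.08 and -0.15, and among those drawn only Got1 lies to the right of the line.

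Whether the subunits of an enzyme moved by the same amount was asked from their ratios. The log2 ratio of 2 genes within a library was compared for 10 pairs with an exact permutation test, two-sided, which with 3 against 3 libraries cannot give p below 0.1. For 7 pairs the groups did not overlap and p was 0.1, the smallest possible (0.143 after Benjamini-Hochberg adjustment over the 10 pairs). None therefore reached 0.05, and the differences below are descriptions. Among single genes tested 62% did not overlap between the groups, and the share over other pairs of genes was not computed. A lack of overlap does not mark out a pair. The log2 ratio of Idh3a to Idh3b was 1.22, 1.24 and 1.26 in the Scr cultures, against 0.86, 0.83 and 0.91 after knockout, a difference of -0.37. For Idh3a to Idh3g the difference was -0.36, without overlap. The ratio of Idh3b to Idh3g overlapped between the groups, with a difference of 0.014 (p = 1 by the exact permutation test).

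For succinyl-CoA ligase the log2 ratio of Sucla2 to Suclg1 was -0.15, -0.45 and -0.26 in the Scr cultures, against 0.29, 0.17 and 0.31 after knockout. The groups of this ratio did not overlap, and the difference was 0.54. Suclg2 to Suclg1 differed by 0.49, also without overlap, while Sucla2 to Suclg2 overlapped (difference 0.053, p = 0.7 by the exact permutation test). The largest difference of the 10 pairs was that of Ogdh to Dld, 0.77, with ratios of -0.16 ± 0.075 in Scr and 0.61 ± 0.073 in MICT1 KO (SD, n = 3 each). Ogdh to Dlst overlapped (difference -0.043, p = 0.5 by the exact permutation test). The differences for mitochondrial Mdh2 to cytosolic Mdh1 (0.49) and for Idh2 to Idh3a (0.13) were without overlap. An overlap does not show that a ratio was equal.

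**Figure D4:**
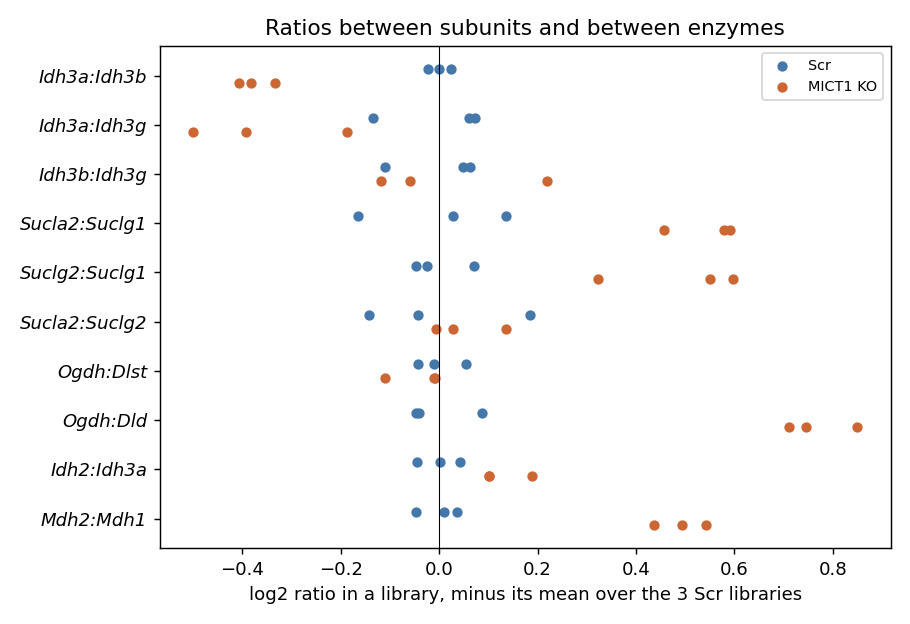
Log2 ratio of 2 genes in each library, minus the mean of that ratio over the 3 Scr libraries (horizontal axis), for the 10 pairs. Each point is a library. The MICT1 KO points of Ogdh:Dld, Sucla2:Suclg1, Suclg2:Suclg1, Mdh2:Mdh1 and Idh2:Idh3a lie to the right of all Scr points and those of Idh3a:Idh3b and Idh3a:Idh3g to the left, whereas Idh3b:Idh3g, Sucla2:Suclg2 and Ogdh:Dlst overlap.

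Promoter sequence was set beside these falls. RefSeq start sites on GRCm38.p6 gave 13 windows for 8 of the 9 genes, 6 of them for Ogdh. Idh3a had none in the table. The 250 bases before each start were searched on both strands for the letters of sites named after the cAMP response element (CRE, TGACGTCA), NRF1 (GCGC, any base, then TGCGC), estrogen-related receptors (AAGGTCA), a direct repeat bound by PPAR dimers (AGGTCA, any base, then AGGTCA again), ETS factors (CCGGAAGT) and the CCAAT box (CCAAT). The direct repeat can overlap the receptor letters and no other motif contains another. Matches are shown for the gene with the largest fall among those with a start, Idh2, and for the 3 with the smallest falls, Sucla2, Ogdh and Mdh2. The sequences run 5′ to 3′ with matches in capitals, at chr7:80115377-80115406 (- strand) for Idh2, chr14:73552756-73552785 (+) for Sucla2, chr11:6291447-6291596 (+) for Ogdh and chr5:135778511-135778540 (+) for Mdh2.
Idh2: cccgggtgagacCCAATggggcggcaggtt
Sucla2: caactgcgtctctGCGCCTGCGCggtgccc
Ogdh: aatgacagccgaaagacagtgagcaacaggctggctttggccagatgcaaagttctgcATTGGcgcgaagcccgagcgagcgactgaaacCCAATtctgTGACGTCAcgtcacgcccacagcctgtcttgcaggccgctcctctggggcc
Mdh2: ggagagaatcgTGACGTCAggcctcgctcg

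The CRE letters were present for 2 members, Mdh2 (127 bases before its RefSeq start) and Ogdh (51 bases before the start shown, and in 3 overlapping windows). The letters of Ogdh overlap no exon of the gene in GENCODE vM21, whereas those of Mdh2, Sucla2 and Idh2 fall in or across the edge of an annotated 5′ untranslated exon, since GENCODE starts these genes further upstream. CRE letters occurred in 1.55% of all 32851 windows and in 2.56% of the 12710 windows of tested genes. By window, 4 of the 13 member windows held them, and 6 of the 13 belong to Ogdh. All shares here are per window, whereas the members are counted by gene. Ogdh and Mdh2 were the members with the smallest falls, and whether these letters go with a smaller fall was not tested. Over the 306 tested genes with these letters the median log2 fold change was 0.051, against -0.0053 for all genes tested. The NRF1 letters were found for Sucla2 only (3.74% of all windows, 8.04% of those of tested genes). The CCAAT letters were found for 5 members, Cs, Idh2, Idh3b, Ogdh and Fh1 (33.8% of all windows, 36.1% of those of tested genes). No window of the 8 genes held the letters searched for estrogen-related receptors (4.08% of all windows, 2.71% of those of tested genes), the direct repeat (0.0335% and 0.0315%) or ETS factors (2.88% and 5.81%), and that of Suclg1 held none of the 6 motifs. A match is a string of letters in this window and no evidence of binding.

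Cytosolic enzymes that handle the same metabolites, a list of 6 genes, had 5 lower and 1 higher, against 28.3% and 28.5% of all genes tested, with a median log2 fold change of -0.73. Idh1, the cytosolic NADP-linked isocitrate dehydrogenase, had a lower log2 fold change than any member, going from 1707 ± 131 to 688 ± 97.6 (SD, n = 3 each), which limma-trend gave as a log2 fold change of -1.32 ± 0.092 (SE) at an adjusted p of 1.06e-10. Malic enzyme Me1 (-1.07, adjusted p = 1.85e-11), cytosolic aconitase Aco1 (-0.81, adjusted p = 3.96e-09) and malate dehydrogenase Mdh1 (-0.65, adjusted p = 1.79e-08) were lower as well. Acly, which splits exported citrate into acetyl-CoA and oxaloacetate, had a log2 fold change of -0.17 (adjusted p = 0.00690). The exception was Got1, the cytosolic aspartate aminotransferase, which rose by 1.03 (adjusted p = 1.30e-08 from limma-trend), and read 459, 571 and 423 in the Scr cultures, against 982, 963 and 1011 after knockout.

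Of 12 genes that feed the cycle or exchange its intermediates 11 were tested. Of these 4 were lower, 3 were higher and 4 missed the threshold, with a median of -0.030, and these shares are near those of all genes tested (28.3% lower and 28.5% higher). Pyruvate carboxylase (Pcx), which refills oxaloacetate, had both the highest level per length in Scr (145 RPKM) and the largest fall of this list, and read 11511, 10857 and 11565 in the Scr cultures, against 1413, 1154 and 1418 after knockout. By limma-trend the change was -3.10 ± 0.069 (log2 fold change and SE) at an adjusted p of 1.12e-18, or 8.55-fold lower. The citrate carrier Slc25a1 (-1.51, adjusted p = 7.77e-12), the dicarboxylate carrier Slc25a10 (-1.15, adjusted p = 3.04e-12) and the alanine aminotransferase Gpt2 (-0.45, adjusted p = 0.00228) were the others that fell. The 3 genes that rose were the mitochondrial malic enzyme Me2 (0.43, adjusted p = 3.35e-06), the aspartate aminotransferase Got2 (0.39, adjusted p = 4.88e-06) and glutamate dehydrogenase Glud1 (0.33, adjusted p = 2.20e-05). Except for Pcx and Me2, these genes were named after their values were seen.

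Pyruvate entry, a list of the mitochondrial pyruvate carrier, the pyruvate dehydrogenase complex and its kinases and phosphatases, had 10 of 13 genes lower and 2 higher, against 28.3% and 28.5% of all genes tested, with a median of -0.83. Its largest fall was that of the carrier subunit Mpc2 (-1.73, adjusted p = 2.65e-13) and its largest rise that of the kinase Pdk3 (0.68, adjusted p = 4.73e-08). The kinase Pdk1 had the highest mean signal over the 6 libraries, uncorrected for length (log2 fold change -0.83, adjusted p = 1.67e-10, all from limma-trend). Among 37 nuclear subunits of respiratory complex I, 22 were lower, 0 were higher and 15 missed the threshold, again against 28.3% lower and 28.5% higher over all genes tested, with a median of -0.30. The largest fall there was that of Ndufb9 (-1.14, adjusted p = 7.28e-12), while Ndufv3, with the highest mean signal when length is not corrected for, stood at 0.031 (adjusted p = 0.659, both from limma-trend). Whether the 9 enzymes fell more than these lists was not tested, and the lists are described by their counts and medians only.

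**Figure D5:**
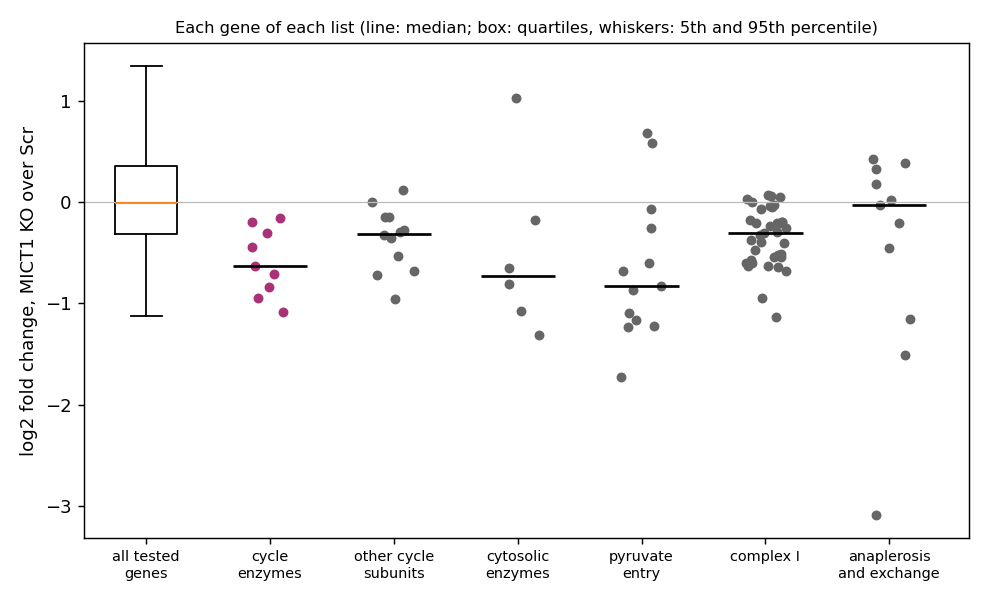
Log2 fold change, MICT1 KO over Scr, of each tested gene of the 9 cycle enzymes and of the other lists (points, with the median as a line), beside all 12507 genes tested (box: quartiles, whiskers: 5th and 95th percentile). All 9 enzymes lie below 0, as do most points for pyruvate entry and complex I, and the points for anaplerosis and exchange spread to both sides, with Pcx at -3.10.

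The markers of fat cells moved with the groups. All 12 adipocyte markers were lower in MICT1 KO cells, with a median log2 fold change of -3.96, and their summed signal was 132315 to 158019 in Scr and 15132 to 21793 in MICT1 KO libraries. Beside this and the other marker counts, 28.3% of all genes tested were lower and 28.5% higher. Of the 2 brown fat markers tested, Ucp1 was lower and Cox7a1 did not pass. Of the 7 preadipocyte and fibroblast markers tested 3 were lower and 3 higher, and the summed signal of all 8 with a value was 36788 to 42174 in Scr and 49858 to 53671 in MICT1 KO. Without the collagen gene Col1a1 the sum of the other 7 was 19507 to 23844 in Scr and 19811 to 21864 in MICT1 KO, and the groups overlapped. Of 8 leukocyte and macrophage markers 4 had values, 1 of which (Cd14) was higher, and their sum was 267 to 384 in Scr and 516 to 638 in MICT1 KO. Without Cd14 the sum of the other 3 was 104 to 153 in Scr and 129 to 162 in MICT1 KO, with overlap. Only Cdh5 was analysed here among 5 endothelial markers. It read 5.93 to 12.1 in Scr and 25.9 to 33.4 in MICT1 KO and was higher (1.71, adjusted p = 0.00275 by limma-trend). Only Acta1, at most 27.7, was analysed here among 6 of skeletal muscle, and it did not pass (adjusted p = 0.358 by limma-trend). The part of these differences in the fall of the cycle enzymes was not tested.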

How the data were processed

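RNA was measured in 3 Scr and 3 MICT1 KO cultures, grouped by the sample titles. Per the study's methods, stranded total RNA libraries were aligned with Partek software to mm10, and the submitters' processing notes also name STAR and DESeq2. The counting model and annotation are not given in the sources used here. What the authors deposited is one normalized signal for each gene and library, not whole counts (90.5% to 90.7% of values under 3000 were within 0.05 of a multiple of the value of 1 read), so no count test was run. Every listed value is above 0.

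On the scale log2(value + 1), limma-trend (limma 3.58.1, R 4.3.3) was fitted to genes that reached 10 in 3 or more libraries, with Benjamini-Hochberg adjustment and a threshold of 0.05. Fold changes are on that scale. RPKM used GENCODE vM21 exon lengths, found for 97.3% of symbols. Alternatives were pseudocounts of 0.5 and 5, no filter, a filter at 4 RPKM, scaling by library sum or by a trimmed mean of M values, limma-voom, a replicate block and each library left out. All members were named, with the genes of the cycle and cytosolic lists. Elsewhere the rule was the largest fall, the largest rise and the highest means. No rise was named for complex I, where 0 genes were called higher. Further genes of anaplerosis and exchange were named outside this rule, after their values were seen. The members, lists, motifs and windows shown were chosen with earlier results of these data known. Some genes are not reported here and were left out of the lists. The p-values cover the spread between cultures of 1 line and not other lines. Whether they cover a spread between knockout pools cannot be told, since the labels do not give the pool.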

Additional observations from a re-analysis of the deposited data

How the results depend on the processing

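All 9 enzymes were called lower and 0 higher under each of the 8 alternatives that kept the 6 libraries, where 5394 (filter at 4 RPKM) to 7157 (limma-voom) genes were called in all, against 7113. With the replicate number as a block the counts were 9 members and 7055 genes. The replicate numbers do not mark a shared origin in the labels, and deviations of same-numbered libraries correlated by -0.0236, -0.0155 and 0.0637. When 1 library at a time was dropped, 7 to 9 enzymes were lower and 0 higher, their median log2 fold change lay between -0.65 and -0.60, and 6340 to 6596 genes were called. Ogdh and Mdh2 were the members that lost a call. Changing the call to a 1.8-fold fall with an unadjusted p under 0.05 left 2 enzymes. With a library left out, the difference in the log2 ratio of Idh3b to Idh3g ran from -0.089 to 0.080 and that of Sucla2 to Suclg2 from -0.018 to 0.14, on both sides of 0. The other 8 ratios kept their sign. No scaling moved the median of all genes by over 0.1. With 3 libraries a group, exact tests of single values cannot go below p = 0.1.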

Other observations

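The malate-aspartate shuttle, which moves reducing equivalents between cytosol and matrix and shares Mdh2 with the cycle, did not move in 1 direction. Both aspartate aminotransferases were higher in MICT1 KO cells, Got1 by 1.03 and Got2 by 0.39 on the log2 scale (adjusted p = 1.30e-08 and 4.88e-06 from limma-trend). Both malate dehydrogenases were lower, with log2 fold changes of -0.65 (Mdh1) and -0.16 (Mdh2). The carriers did not pass the test. Slc25a11, the oxoglutarate carrier, stood at -0.21 (adjusted p = 0.0588), and the aspartate-glutamate carriers Slc25a12 and Slc25a13 at 0.18 (adjusted p = 0.161) and 0.019 (adjusted p = 0.938), all from limma-trend. This grouping was made after the values were seen.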
